A study of Homo sapiens with 14 samples.

Results

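The early state of Panc-1 cells, 1 h and 5 h after addition of angiogenin (ANG) or epidermal growth factor (EGF), was set against the untreated and 24 h state of the same cells. The 4 early libraries were those labelled ANG 1 h, ANG 5 h, EGF 1 h and EGF 5 h, and the 3 others were mock, ANG 24 h and EGF 24 h. They make up all 7 Panc-1 libraries of the 14 in the series. The sets were defined by line and labelled condition, not by the level of any gene, and 12484 of the 23040 listed genes were tested, those with 1 RPKM or more in at least 2 of the 7 libraries. RPKM is the number of reads per kilobase of transcript and per M mapped reads, a level corrected for gene length and depth.

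Panc-1 and AsPC-1 are established lines from human pancreatic ductal cancer. Cells grown with 10% fetal bovine serum were starved of serum and given ANG, a secreted ribonuclease also called RNase 5, at 1 µg/ml, or EGF at 50 ng/ml, and total RNA was sequenced after 1, 5 or 24 h. The mock library of each line came from untreated cells, and its time in starvation medium was not given in the labels. Each of the 7 conditions per line had 1 library, the doses of the ligands differ, and time and handling of the dishes cannot be told apart from ligand. The libraries of a set are therefore its only repeats, the spread within a set also holds ligand and time, and nothing in the labels says that they came from separate cultures. Joining mock with the 24 h libraries followed an earlier look at these data. The number of genes called, the principal components and the library permutation p-values are therefore no independent evidence that the sets differ.

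As background, EGF binds the receptor EGFR and switches on the RAS, MAPK and PI3K pathways, and the title of the series names ANG as a ligand of the same receptor. Within an hour of such a signal cells transcribe immediate-early genes such as EGR1 and FOS, and those that go on to divide later make the transcripts of DNA replication under E2F factors and those of mitosis under the MuvB, B-MYB and FOXM1 complexes. Sterol and fatty acid synthesis genes follow the SREBP factors, amino acid and tRNA synthetase genes follow ATF4, and genes such as PIK3IP1 and MXD4 follow FOXO factors, which PI3K signalling holds outside the nucleus.

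The steps between low values put depth at 11.1 to 16.7 M reads in the early libraries and 12.7 to 15.6 M in the mock and 24 h libraries (exact two-sided permutation p = 0.6857). At these depths 1 read in 2 kb of transcript was worth 0.0299 to 0.0451 RPKM in the early libraries and 0.0320 to 0.0393 RPKM in the others. The early libraries held fewer genes at 1 RPKM or more, 11941 ± 39.5 (SD, n = 4) against 12213 ± 50.3 (SD, n = 3), and the sets did not overlap (exact two-sided permutation p = 0.0286, the smallest that the 35 arrangements allow). Genes with a span under 400 bp took 5.11% of reads in EGF 1 h and 10.0 to 11.4% in the other 3 early libraries, against 6.22% in mock, 16.5% in ANG 24 h and 11.6% in EGF 24 h (exact two-sided permutation p = 0.4). All 10 genes of the ductal cancer list were tested, from the mucin gene MUC1 at 0.77 RPKM in its lowest library to the intermediate filament gene VIM at 2098 to 2497 RPKM in the early libraries and 2044 to 2755 RPKM in the others. All 8 markers of other pancreatic cells were untested, with a summed level of at most 0.07 RPKM in an early library and 0.08 RPKM in the others, and INS, GCG, SST and PNLIP were at 0 in all 7. Of 12 markers of blood, vessel and stromal cells 1 was tested, CD68, at 39.3 to 44.9 RPKM early and 28.4 to 46.8 RPKM in the others. Its difference between the sets did not pass. The summed level of the 12 was 40.2 to 45.85 RPKM early and 29.4 to 48.2 RPKM in the others, and HBB, PECAM1 and DCN were at 0 in all 7.

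The sets separated on the main axis of variation. The first principal component of log2(RPKM + 1) held 59.9% of the variance, with the early libraries at 19.6 to 23.7 and the mock and 24 h libraries at -33.8 to -22.8. The second held 18.8% and set EGF 1 h (-21.2) and mock (-22.4) apart from the other 5 libraries (3.8 to 13.5). These 2 libraries had the lowest read shares of genes under 400 bp, and the part of that share in the second component was not tested. With such genes left out and the rest rescaled, 2882 genes were called higher and 3451 lower.

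**Figure D1:**
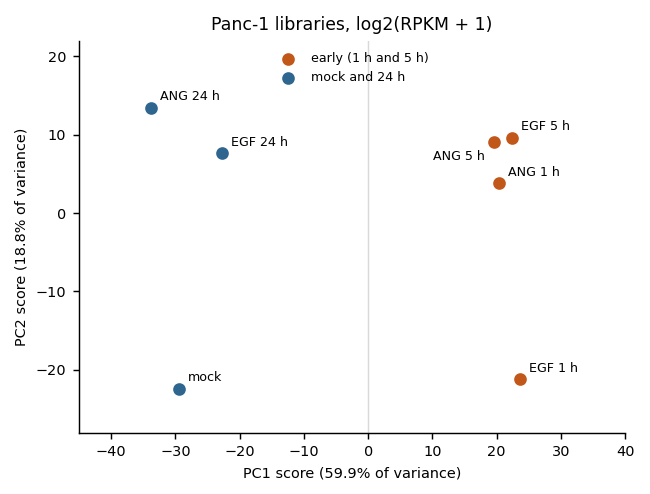
Scores of the 7 Panc-1 libraries on the first (horizontal, 59.9% of variance) and second (vertical, 18.8%) principal components of log2(RPKM + 1), 1 point per library. The 4 early libraries lie right of 0 and the mock and 24 h libraries left of it, while EGF 1 h and mock lie at the bottom.

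Among the gene lists examined, most tested members were higher early in those of G2/M, G1/S, histone, ATF4, unfolded protein response, NRF2 and ribosome biogenesis genes. Most were lower early in those of cholesterol synthesis, sterol control, fatty acid synthesis, interferon-stimulated, matrix and FOXO target genes. With a library left out, the lowest counts higher were 12 of 33 (ribosome biogenesis), 9 of 18 (unfolded protein response) and 3 of 14 (NRF2). The lowest counts lower were 8 of 17 (FOXO) and 7 of 14 (matrix), so for these 5 lists the majority depended on single libraries. The lists hold a small part of all genes called. In limma's test with Benjamini-Hochberg adjustment, 2560 genes (20.5%) were higher and 3060 (24.5%) lower in the early set at an adjusted p under 0.05, with a median difference of -0.03 over all genes. Differences are on the log2(RPKM + 1) scale, early minus mock and 24 h, which understates the change of low genes. Only 311 genes (2.49%) were also at least 2-fold higher and 178 (1.43%) at least 2-fold lower. The early libraries lay wholly above the other 3 in 2772 genes and wholly below them in 3308 (22.2% and 26.5% of all tested). With mock and 24 h as separate sets, early minus 24 h called 2586 higher (20.7%) and 2363 lower (18.9%), and early minus mock, with 1 library on its lower side, called 1207 higher (9.67%) and 2448 lower (19.6%). The 24 h libraries against mock called 0 genes in limma, with 1082 at an unadjusted p under 0.05.

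**Figure D2:**
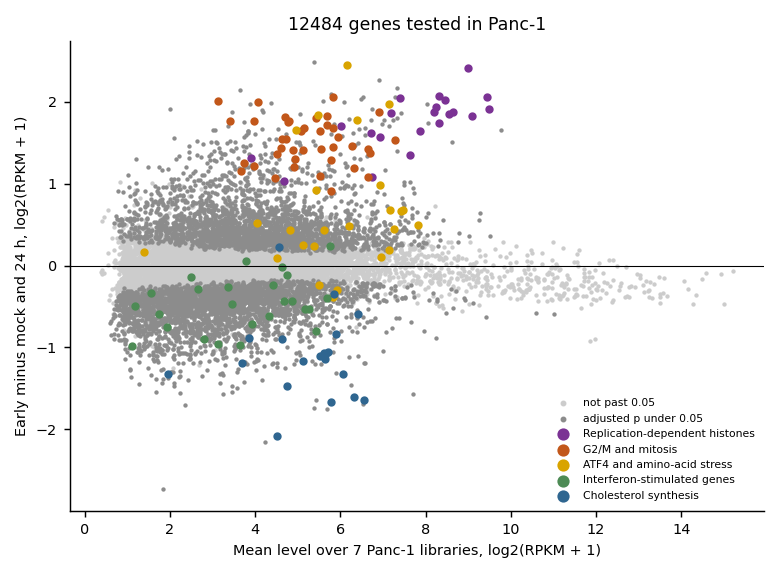
Difference of each of the 12484 tested genes (vertical, early minus mock and 24 h, log2(RPKM + 1)) against its mean level over the 7 Panc-1 libraries (horizontal, log2(RPKM + 1)), with 5 gene lists in colour. All histone and G2/M points lie above 0 and all but 1 of the cholesterol synthesis points below it. The lowest point is the short Y RNA gene RNY4, listed at 0 RPKM in the early libraries and at a mean of 6.05 RPKM in the others.

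All 40 genes of the G2/M and mitosis list rose in the early libraries (limma, adjusted p under 0.05, against 20.5% of all genes), 39 of them at least 2-fold, with a median difference of 1.5 and a range of 0.91 to 2.07. Their summed level was 2263 to 2631 RPKM in the early libraries and 776 to 984 RPKM in the mock and 24 h libraries. The median was 1.51 against the 24 h libraries alone and 1.52 against mock alone. In bulk RNA, more cells holding a transcript and more of it per cell cannot be told apart.

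The promoters of 3 of these genes are shown because they carry the letters TTTGAA of the CHR, the element near the start sites of many mitotic genes that the MuvB complexes bind. The windows come from the RefSeq promoter table of GRCh38.p14, a build other than the hg19 of the expression files. They run 5′ to 3′ on the gene's strand, and capitals mark TTTGAA or its reverse complement. For TOP2A, the window is chr17:40417897-40418146 on the minus strand, with matches that begin 194 and 151 bases before the start site. For HJURP, chr2:233854536-233854685 on the minus strand holds 1 match, 111 bases before the start. For HMMR, chr5:163460482-163460631 on the plus strand holds 2 in tandem, 28 and 22 bases before the start.
TOP2A: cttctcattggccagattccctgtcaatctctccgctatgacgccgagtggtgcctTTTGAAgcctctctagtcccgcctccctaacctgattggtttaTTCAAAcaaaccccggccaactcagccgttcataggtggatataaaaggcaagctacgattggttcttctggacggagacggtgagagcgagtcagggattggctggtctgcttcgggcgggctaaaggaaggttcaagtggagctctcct
HJURP: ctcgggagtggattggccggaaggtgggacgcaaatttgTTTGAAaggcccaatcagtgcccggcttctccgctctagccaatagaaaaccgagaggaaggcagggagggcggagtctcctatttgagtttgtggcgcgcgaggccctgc
HMMR: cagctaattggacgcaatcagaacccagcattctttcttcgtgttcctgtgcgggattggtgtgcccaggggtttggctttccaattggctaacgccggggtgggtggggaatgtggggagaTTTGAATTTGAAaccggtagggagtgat

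TTTGAA on either strand was present in the 300-base window (250 bases before to 50 after the start) of 25 of the 35 G2/M genes with a RefSeq promoter (71.4%). It was in 903 of 9512 promoters of tested genes (9.49%) and in 15.4% of all 27305 promoters in the table. Among promoters of genes at least 2-fold higher it was in 94 of 250 (37.6%), and among those at least 2-fold lower in 6 of 131 (4.58%). CCAAT on either strand was in 28 of the 35 G2/M promoters (80.0%), against 37.4% of tested promoters. TTTCCCGC, an E2F site, was in 9 of 34 promoters of the G1/S list (26.5%), against 2.69%. A match describes the letters in the window and is no evidence of binding.

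TOP2A, the topoisomerase that untangles sister chromatids (hg19 chromosome 17, 38544773 to 38574202), was at 182, 174, 181 and 152 RPKM in ANG 1 h, ANG 5 h, EGF 1 h and EGF 5 h, against 46.7, 39.4 and 53.04 RPKM in mock, ANG 24 h and EGF 24 h. The means were 172 ± 14.003 (SD, n = 4) and 46.4 ± 6.84 RPKM (SD, n = 3), a ratio of 3.71 (difference 1.88 ± 0.11 SE, limma adjusted p = 1.43e-05). No early library came near the others, and below, early values keep the order ANG 1 h, ANG 5 h, EGF 1 h, EGF 5 h and the others the order mock, ANG 24 h, EGF 24 h. CENPF, a kinetochore protein (chromosome 1, 214776532 to 214837914), had the largest difference of the list, with 90.1, 74.1, 94.0 and 70.9 RPKM in the early libraries and 13.9, 15.4 and 30.4 RPKM in the mock and 24 h libraries (2.07 ± 0.24 SE, limma adjusted p = 0.000207). NUF2, a part of the NDC80 kinetochore complex (chromosome 1, 163291723 to 163325553), was at 24.0, 24.4, 25.4 and 20.5 RPKM early, against 4.42, 4.38 and 6.80 RPKM (2.004 ± 0.138 SE, limma adjusted p = 2.46e-05). For both genes EGF 24 h was the highest of its set and still below each early library.

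HJURP, the chaperone that places the centromeric histone CENPA, was at 77.8, 69.3, 66.6 and 77.5 RPKM early and at 17.4, 16.4 and 27.0 RPKM in the mock and 24 h libraries. HMMR, a spindle-associated hyaluronan receptor, was at 38.1, 34.99, 41.3 and 30.3 RPKM early and at 8.57, 6.90 and 14.1 RPKM in the others. MKI67, the gene of the Ki-67 proliferation antigen, was at 47.5, 47.1, 44.4 and 46.0 RPKM early, against 15.2, 11.4 and 16.0 RPKM. These values again left a gap between the sets, and the early libraries of either ligand and time were alike. The cyclin gene CCNB1, which drives entry into mitosis, was at 145, 139, 151 and 122 RPKM early and at 57.8, 49.2 and 52.7 RPKM in the others. UBE2C, the ubiquitin-conjugating enzyme of the anaphase-promoting complex, had the smallest difference (0.91 ± 0.08 SE, limma adjusted p = 6.57e-05), with 67.2 to 69.0 RPKM early and 31.8 to 40.4 RPKM in the others.

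Of 39 tested genes of G1/S and DNA replication, 38 rose and none fell, 24 of them at least 2-fold (median 1.10, range -0.03 to 2.03). The median was 1.12 against the 24 h libraries and 1.05 against mock. RRM2, the small subunit of ribonucleotide reductase (chromosome 2, 10262695 to 10271546), was at 133, 132, 131 and 125 RPKM early and at 32.1, 26.6 and 35.4 RPKM in the mock and 24 h libraries (2.03 ± 0.09 SE, limma adjusted p = 9.28e-06). The early values lay close together and far above the others. CDC45, which unwinds DNA with the MCM helicase, was at 17.0 to 21.3 RPKM early and 4.55 to 7.15 RPKM in the others (1.65 ± 0.14 SE, limma adjusted p = 4.85e-05). MCM2, a subunit of that helicase, was at 63.0 to 78.2 RPKM early and 28.8 to 37.7 RPKM in the others (1.15). The clamp gene PCNA was at 128, 117, 126 and 100.4 RPKM early and at 55.2, 43.5 and 56.6 RPKM in the others. E2F1, the transcription factor of this programme, was at 31.3, 29.3, 27.9 and 20.9 RPKM early and 8.90, 8.38 and 12.5 RPKM in the others. CCNE1, a cyclin of the G1/S step, was the member that did not pass (5.82 to 8.89 RPKM early, 7.46 to 8.40 RPKM in the others, limma adjusted p = 0.871). ZNF367, a zinc finger gene outside the lists (chromosome 9, 99148225 to 99180669), was among the 12 largest rises, at 14.9, 14.6, 25.9 and 14.9 RPKM early and 2.85, 2.14 and 4.60 RPKM in the others (2.15 ± 0.24 SE, limma adjusted p = 0.000182).

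All 21 tested replication-dependent histone genes of the list rose at least 2-fold, and HIST2H3D was too low to be tested (limma, median 1.85, range 1.04 to 2.42). These genes are expressed in S phase, have near-identical copies in clusters on chromosomes 6 and 1, and their reads may be shared between copies, so single values are uncertain. HIST1H1B, now H1-5, a linker histone (chromosome 6, 27834570 to 27835359), was at 904, 758, 656 and 820.3 RPKM early and at 132, 120.0 and 191 RPKM in the mock and 24 h libraries (2.42 ± 0.18 SE, limma adjusted p = 2.9e-05). HIST1H3H, now H3C10, was at 1058, 802, 982 and 1205 RPKM early, against 179, 186 and 416 RPKM. HIST1H2BK had the smallest rise, with 28.2 to 35.3 RPKM early and 13.1 to 16.1 RPKM in the others (1.04). The summed level of the list was 7380 to 9451 RPKM early and 2048 to 2899 RPKM in the others, with no overlap. The linker histone gene HIST1H1E of the list (2.08) and the histone genes HIST1H2AL (2.27), HIST1H2BO (2.17), HIST1H2BL (2.10), HIST1H2AJ (2.06) and HIST1H2AH (2.06), outside the list, were among the 12 largest rises as well. SLBP, the protein that binds histone mRNA ends, rose less (0.40 ± 0.09 SE, limma adjusted p = 0.0054), with 57.2 to 68.7 RPKM early and 46.8 to 53.3 RPKM in the others.

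Regulators of the G1 step went in both directions, with 5 of 12 higher (41.7%) and 4 lower (33.3%), or 2 lower without mock. Over all genes the shares were 20.5% and 24.5%. CCND1, the cyclin D1 gene (chromosome 11, 69455873 to 69469242), was lower at 34.2, 37.0, 41.9 and 44.5 RPKM early, against 64.1, 56.5 and 75.9 RPKM in the mock and 24 h libraries (-0.72 ± 0.12 SE, limma adjusted p = 0.00155). The sets did not overlap. CDKN2C, an inhibitor of CDK4 and CDK6, was higher at 16.1, 15.0, 13.1 and 9.25 RPKM early, against 6.47, 6.05 and 5.65 RPKM, and the pocket protein gene RBL1 was at 10.1 to 12.8 RPKM early and 4.98 to 5.50 RPKM in the others (0.96 ± 0.09 SE, limma adjusted p = 7.52e-05).

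**Figure D3:**
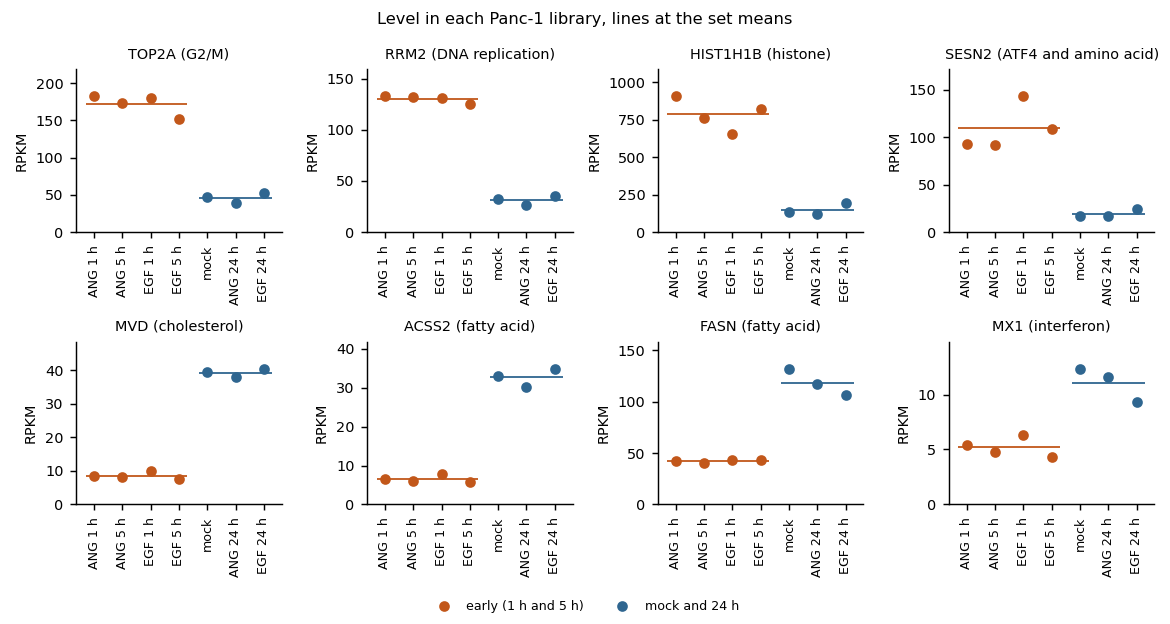
RPKM (vertical) in each of the 7 Panc-1 libraries (horizontal) for 8 genes, with early libraries left of mock and 24 h libraries, 1 point per library and lines at the set means. The upper row (TOP2A, RRM2, HIST1H1B and SESN2) is higher early, with TOP2A at 152 to 182 RPKM against 39.4 to 53.04 RPKM, and the lower row (MVD, ACSS2, FASN and MX1) is lower early, with no overlap in any panel.

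Cholesterol synthesis went the other way. Of its 20 genes 19 fell in the early libraries (against 24.5% of all genes), 14 of them at least 2-fold, with a median of -1.12 (-1.04 against the 24 h libraries, -1.23 against mock). MVD, the decarboxylase that makes isopentenyl diphosphate (chromosome 16, 88718348 to 88729495), was at 8.35, 8.24, 9.99 and 7.48 RPKM early and at 39.5, 37.8 and 40.4 RPKM in the mock and 24 h libraries, 4.61-fold lower by the means (-2.09 ± 0.09 SE, limma adjusted p = 9.28e-06). SC4MOL, now MSMO1, a sterol methyl oxidase (chromosome 4, 166248818 to 166264225), was at 27.7, 24.2, 32.6 and 25.8 RPKM early, against 97.1, 79.2 and 92.5 RPKM (-1.67 ± 0.11 SE, limma adjusted p = 2.12e-05). DHCR7, which makes cholesterol in the last step of one branch (chromosome 11, 71145457 to 71159477), was at 49.9, 45.8, 52.3 and 45.5 RPKM early, against 159, 144 and 155 RPKM (-1.64 ± 0.08 SE, limma adjusted p = 9.28e-06). In all of these the early libraries lay far below the others. HMGCS1, the synthase that makes HMG-CoA, was at 30.1, 26.5, 48.4 and 27.8 RPKM early and at 77.8, 65.2 and 67.7 RPKM in the others. ACAT2, which joins acetyl-CoA units, was 3.07-fold lower, and its reads are uncertain because its span overlaps that of TCP1 on the other strand. PMVK, the kinase before MVD, was the member called higher (0.22 ± 0.08 SE, limma adjusted p = 0.0456), and no member was called higher when any library other than ANG 24 h was left out.

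Among 10 tested genes of sterol control and uptake 6 fell (60.0%, against 24.5% of all genes) and none rose (median -0.47). SREBF2, the gene of the transcription factor SREBP2, was at 26.7, 26.4, 26.9 and 26.1 RPKM early and at 53.6, 48.1 and 51.9 RPKM in the mock and 24 h libraries (-0.92 ± 0.06 SE, limma adjusted p = 2.12e-05). INSIG1, which holds that factor in the endoplasmic reticulum, was at 25.1 to 31.1 RPKM early and 52.3 to 60.8 RPKM in the others (-0.99 ± 0.09 SE, limma adjusted p = 7.04e-05). The letters TCACNCCAC of a sterol regulatory element, on either strand, were in none of 15 matched cholesterol synthesis promoters and in 1.11% of tested promoters. At so low a share, none among 15 cannot set the list apart, and other spellings of the element were not searched.

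Fatty acid synthesis and desaturation followed, with 12 of 17 tested genes lower (70.6%, against 24.5% of all genes), 8 at least 2-fold, and 1 higher (median -0.59). ACSS2, which makes acetyl-CoA from acetate (chromosome 20, 33462766 to 33515769), had the largest fall among the genes the naming rule took, with 6.50, 6.13, 7.88 and 5.75 RPKM early and 33.0, 30.2 and 34.9 RPKM in the mock and 24 h libraries (-2.16 ± 0.10 SE, limma adjusted p = 9.28e-06). SCD, the stearoyl-CoA desaturase (chromosome 10, 102106772 to 102124588), was at 112, 97.6, 127 and 109 RPKM early, against 395, 330.2 and 277 RPKM (-1.57 ± 0.13 SE, limma adjusted p = 5.15e-05). FASN, the fatty acid synthase (chromosome 17, 80036214 to 80056106), was at 42.0, 40.1, 43.6 and 43.5 RPKM early, against 132, 117 and 107 RPKM (-1.46 ± 0.08 SE, limma adjusted p = 1.23e-05). The early values of FASN lay close together, and all were below the lowest of the others. FADS2, the first desaturase of polyunsaturated fatty acids, was 3.25-fold lower by the means, and LPIN1, a phosphatidate phosphatase, was at 19.3 to 26.2 RPKM early and 41.7 to 50.9 RPKM in the others. MID1IP1, an activator of acetyl-CoA carboxylase, was the member that rose (13.8 to 17.7 RPKM early, 6.18 to 8.66 RPKM in the others). OSBPL5, a lipid transfer protein outside these lists, was at 3.83 to 4.28 RPKM early and 13.7 to 14.8 RPKM in the others (-1.57 ± 0.07 SE, limma adjusted p = 9.28e-06).

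Of 25 ATF4 and amino acid genes 18 rose (72.0%, against 20.5% of all genes) and 2 fell (median 0.48), and 5 rose at least 2-fold. SESN2, a leucine sensor that restrains mTORC1 (chromosome 1, 28586006 to 28609002), was at 92.9, 92.2, 143 and 109 RPKM early and at 16.6, 16.6 and 24.2 RPKM in the mock and 24 h libraries, a ratio of means of 5.71 (2.45 ± 0.18 SE, limma adjusted p = 2.87e-05). DDIT3, the gene of the stress factor CHOP, was at 203, 194, 257 and 172 RPKM early, against 51.6, 52.0 and 50.6 RPKM, with reads that are uncertain because its span overlaps that of MARS (1.97 ± 0.12 SE, limma adjusted p = 1.96e-05). EGF 1 h was the highest library for both. CHAC1, which degrades glutathione, was at 67.8, 68.4, 58.9 and 56.5 RPKM early, against 15.1, 14.9 and 20.9 RPKM, and the pseudokinase gene TRIB3 was at 112 to 128 RPKM early and 32.0 to 38.8 RPKM in the others. SLC7A11, the cystine transporter, was at 39.6 to 48.0 RPKM early and 10.7 to 17.2 RPKM in the others (1.66 ± 0.15 SE, limma adjusted p = 6.27e-05). ATF4 itself moved less, with 74.0 to 93.8 RPKM early and 55.4 to 61.5 RPKM in the others (0.48 ± 0.09 SE, limma adjusted p = 0.00246). PHGDH, the first enzyme of serine synthesis, and WARS, the tryptophanyl-tRNA synthetase, were the 2 members that fell (-0.24 and -0.39). Against mock alone 13 of the 25 were called higher.

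Endoplasmic reticulum chaperones and unfolded protein response genes were higher in 11 of 18 cases and lower in none (median 0.31). HERPUD1, a part of the machinery that degrades misfolded proteins, was at 38.6, 38.6, 42.9 and 35.5 RPKM early and at 17.1, 14.9 and 15.4 RPKM in the mock and 24 h libraries (1.24 ± 0.08 SE, limma adjusted p = 2.12e-05). XBP1 and HSPA5, a transcription factor and the chaperone BiP, were higher by 0.98 and 1.02. Of the heat shock chaperones 2 of 17 were higher (11.8%) and 6 lower (35.3%), against 20.5% and 24.5% of all genes (median -0.06). HSPA1B was at 9.55, 10.4, 12.6 and 7.85 RPKM early, against 26.5, 23.6 and 20.3 RPKM, and HSPA1A fell as well (-1.01). These 2 genes are near-identical copies, so their reads are uncertain between them.

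Ribosome biogenesis rose by smaller steps, with 17 of 33 genes higher (51.5%, against 20.5% of all genes) and none lower (median 0.26). The count of higher genes was 12 when mock, ANG 5 h, ANG 24 h or EGF 1 h was left out. NOP56, a core protein of small nucleolar particles whose introns hold small nucleolar RNA genes, was at 88.4, 89.1, 83.3 and 92.9 RPKM early and at 57.2, 52.7 and 60.9 RPKM in the mock and 24 h libraries (0.63 ± 0.07 SE, limma adjusted p = 0.000237). RRP12, an export factor of the small subunit, was spread by ligand, with 42.0 and 48.2 RPKM in early ANG, 86.6 and 77.3 RPKM in early EGF, and 26.9 to 37.0 RPKM in the others. MYC, a driver of this programme, was at 65.9 to 114 RPKM early and 55.2 to 75.2 RPKM in the others and did not pass (0.51 ± 0.19 SE, limma adjusted p = 0.0542). CACGTG, the E-box that MYC binds, was in 7 of 24 promoters of the list (29.2%), against 10.4% of tested promoters, on either strand.

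Interferon-stimulated genes were lower in 17 of 25 cases (68.0%, against 24.5% of all genes) and higher in 1 (median -0.47). MX1, an antiviral GTPase (chromosome 21, 42792520 to 42831141), was at 5.44, 4.76, 6.35 and 4.30 RPKM early and at 12.3, 11.6 and 9.30 RPKM in the mock and 24 h libraries (-0.96 ± 0.13 SE, limma adjusted p = 0.000551). OAS1, which senses double-stranded RNA, was at 3.57 to 4.51 RPKM early and 7.13 to 9.27 RPKM in the others (-0.90 ± 0.11 SE, limma adjusted p = 0.000311). IFIT1 and IFIT2, which bind viral RNA, did not pass (limma adjusted p = 0.403 and 0.896).

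Of 20 NF-kB, chemokine and cytokine genes 10 fell (50.0%, against 24.5% of all genes) and none rose (median -0.31). In the fit without the mock library 6 of the 20 fell, which is nearer that share. CXCL5, a neutrophil chemokine (chromosome 4, 74861359 to 74864416), was at 3.20, 2.86, 3.97 and 2.87 RPKM early and at 9.28, 8.73 and 7.53 RPKM in the mock and 24 h libraries (-1.18 ± 0.11 SE, limma adjusted p = 9.49e-05). The adhesion gene ICAM1 was at 167, 167, 213 and 209 RPKM early, against 322, 300.0 and 359.5 RPKM (-0.80 ± 0.12 SE, limma adjusted p = 0.00103). CCL5, a T-cell chemokine outside the list, was at 21.3, 18.5, 24.1 and 22.5 RPKM early, against 78.4, 68.8 and 61.8 RPKM (-1.64 ± 0.11 SE, limma adjusted p = 2.12e-05). SERPINA3, an acute-phase protease inhibitor also outside the list (chromosome 14, 95078714 to 95090390), was at 24.0 to 25.99 RPKM early and 71.4 to 94.7 RPKM in the others (-1.75 ± 0.10 SE, limma adjusted p = 1.23e-05). No early library of these 4 genes reached the lowest mock or 24 h library.

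FOXO targets and PI3K control genes were lower in 9 of 17 cases (52.9%, against 24.5% of all genes) and higher in 1 (median -0.34). PIK3IP1, an inhibitor of PI3K, was at 3.38, 1.67, 1.55 and 1.19 RPKM early and at 6.59, 6.61 and 4.75 RPKM in the mock and 24 h libraries (-1.28 ± 0.22 SE, limma adjusted p = 0.00183). Its ANG 1 h value was the highest of the early set. PINK1, a mitochondrial kinase, was at 8.06 to 10.1 RPKM early and 15.1 to 24.0 RPKM in the others. The MYC antagonists MXD4 (-1.08) and MXI1 (-0.92) were lower as well, MXD4 with 4.52 to 5.93 RPKM early and 10.1 to 13.6 RPKM in the others. MXD1, of the same family, went the other way, at 1.64 to 2.86 RPKM early and 1.09 to 1.61 RPKM in the others. Its rise (0.51 ± 0.15 SE, limma adjusted p = 0.0244) lost its call without mock, ANG 24 h, EGF 1 h or EGF 5 h. In the list of the MYC, MAX and MXD network 2 of 10 genes were higher and 4 lower, against 20.5% and 24.5% of all genes. The count higher was about the share of all genes and does not set the list apart.

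In the list of collagens and secreted matrix genes 8 of 14 were lower and 1 higher (median -0.34), in that of the urokinase system and matrix metalloproteinases 5 of 11 lower and 1 higher. The shares lower were 57.1% and 45.5%, against 24.5% of all genes, and those higher 7.1% and 9.1%, against 20.5%. MMP14, the membrane-bound metalloproteinase (chromosome 14, 23305793 to 23316803), was at 9.52, 9.03, 9.30 and 8.83 RPKM early and at 23.5, 21.0 and 21.4 RPKM in the mock and 24 h libraries (-1.17 ± 0.07 SE, limma adjusted p = 1.31e-05). TIMP2, an inhibitor of such proteases, was at 7.66 to 9.54 RPKM early and 16.3 to 18.8 RPKM in the others. TGM2, a protein crosslinking enzyme outside both lists (chromosome 20, 36756864 to 36793700), was at 18.8, 19.5, 19.3 and 21.6 RPKM early, against 71.3, 67.3 and 66.5 RPKM, 3.45-fold lower by the means (-1.74 ± 0.07 SE, limma adjusted p = 8.45e-06). Of the epithelial markers typical of AsPC-1 3 of 8 fell in Panc-1 (37.5%, against 24.5% of all genes) and none rose. They were ELF3, an epithelial transcription factor (-1.06), the tight junction gene CLDN4 (80.3 to 100.01 RPKM early, 172 to 185 RPKM in the others) and LCN2, a siderophore-binding protein (17.3 to 21.3 and 40.4 to 48.0 RPKM). In the ductal cancer list 3 of 10 markers were called lower, against 24.5% of all genes, and none higher. The count was 1 without mock, ANG 1 h, ANG 5 h, ANG 24 h or EGF 5 h. KRT18, a keratin gene that kept its call with each library left out, was at 313 to 349.7 RPKM early and 395 to 523 RPKM in the others. MEX3A, an RNA-binding protein outside these lists, fell too (1.29 to 2.14 RPKM early, 6.14 to 8.89 RPKM in the others).

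NRF2 antioxidant genes were higher in 8 of 14 cases and lower in none (median 0.26), and in 3 without ANG 24 h, with NFE2L2, the gene of NRF2 itself, at 53.7 to 69.4 RPKM early and 31.3 to 35.1 RPKM in the others. The aryl hydrocarbon receptor targets CYP1B1 (91.9 to 118 RPKM early, 29.2 to 38.9 RPKM in the others, 1.62 ± 0.12 SE, limma adjusted p = 2.97e-05) and CYP1A1 (0.89 to 2.91 RPKM early, 0.15 to 0.22 RPKM in the others) rose, among 2 of 7 genes higher and 2 lower (28.6% each). The 2 lower genes were AHRR (3.01 to 4.42 RPKM early, 5.51 to 7.33 RPKM in the others, -0.60) and ARNT (-0.48). Clock genes were higher in 5 of 16 cases (31.2%), or 3 without ANG 24 h, and lower in 2 (12.5%). With any library left out at most 1 was lower, and none without mock. Over all genes the shares were 20.5% higher and 24.5% lower. The clock repressor gene NR1D2 was at 13.9 to 18.2 RPKM early and 6.79 to 9.04 RPKM in the others. In 7 further lists 11.5 to 31.6% of tested members were higher and 21.1 to 34.6% lower, against 20.5% and 24.5% of all genes. These were glycolysis and hypoxia genes (6 of 28 higher, 8 lower), p53 targets (6 of 19 higher, 4 lower), lysosome and autophagy genes (3 of 26 higher, 9 lower), SRF and YAP targets (4 of 25 higher, 6 lower), integrins and laminin (2 of 13 higher, 3 lower), TGF-beta and BMP genes (2 of 17 higher, 4 lower) and Kruppel-like factors (3 of 11 higher, 3 lower). Without ANG 24 h the counts of higher members were at their lowest in these lists, 0 to 4, and over the libraries left out the lowest counts of lower members were 1 to 7.

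Among the receptors and their partners 1 of 8 genes rose (12.5%) and 3 fell (37.5%), against 20.5% and 24.5% of all genes. EGFR, the receptor itself (chromosome 7, 55086725 to 55275031), was at 32.4, 38.7, 33.4 and 41.9 RPKM early and at 43.7, 36.1 and 42.1 RPKM in the mock and 24 h libraries, with overlapping sets (-0.15 ± 0.11 SE, limma adjusted p = 0.281). EREG, the EGFR ligand epiregulin (chromosome 4, 75230860 to 75254477), was at 8.43, 9.10, 12.5 and 12.9 RPKM early, against 2.66, 2.08 and 3.34 RPKM (1.66 ± 0.17 SE, limma adjusted p = 0.000118). ERBB2, the partner receptor, was lower at 9.98 to 11.9 RPKM early, against 15.0 to 20.02 RPKM (-0.65 ± 0.11 SE, limma adjusted p = 0.00132). The cell's own ANG gene was at 2.64 to 3.29 RPKM early and 3.65 to 4.93 RPKM in the others (-0.46 ± 0.11 SE, limma adjusted p = 0.00857), with reads that are uncertain because its span overlaps that of RNASE4. PLXNB2, a receptor reported for ANG, was slightly lower (-0.29 ± 0.06 SE, limma adjusted p = 0.00573), and RNH1, the ribonuclease inhibitor, was at 88.9 to 96.1 RPKM early and 87.1 to 95.6 RPKM in the others (limma adjusted p = 0.737).

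Several immediate-early genes were high in the EGF 1 h library and not in the other 3 early libraries. EGR1, a transcription factor induced by ERK signalling (chromosome 5, 137801181 to 137805004), was at 1.49, 0.75, 29.1 and 3.299 RPKM early and at 1.32, 1.47 and 1.88 RPKM in the mock and 24 h libraries. FOSB, a subunit of the AP-1 factor, was at 31.3 RPKM in EGF 1 h, at 0.22 to 0.64 RPKM in the other early libraries and at 0.10 to 0.25 RPKM in the mock and 24 h libraries. EGR2 was at 17.9 RPKM, NR4A1 at 11.3 RPKM, EGR4 at 8.30 RPKM and FOS at 5.95 RPKM in EGF 1 h, and none of these 4 exceeded 1 RPKM in any of the other 6 libraries. FOSB and these 4 reached 1 RPKM in a single library and were not tested. Of 16 tested members 5 rose (31.2%, against 20.5% of all genes) and none fell (median 0.58), and 2 rose without ANG 24 h. ATF3, which also belongs to the ATF4 response, was at 51.4, 45.9, 104 and 54.0 RPKM early and at 12.01, 9.03 and 9.01 RPKM in the others, the largest rise among the genes named (2.49 ± 0.25 SE, limma adjusted p = 0.000114). KLF6, a zinc finger factor, rose by 0.65 ± 0.13 SE (limma adjusted p = 0.00327). JUN, with 44.5, 37.6, 100.4 and 70.8 RPKM early and 27.1, 25.5 and 38.6 RPKM in the others, passed in all libraries (limma adjusted p = 0.0321) but not without mock, ANG 24 h or EGF 5 h, where its adjusted p reached 0.111. FOSL1 did not pass without mock or ANG 24 h (highest limma adjusted p 0.0871) and CYR61 did not without ANG 24 h (0.0726).

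**Figure D4:**
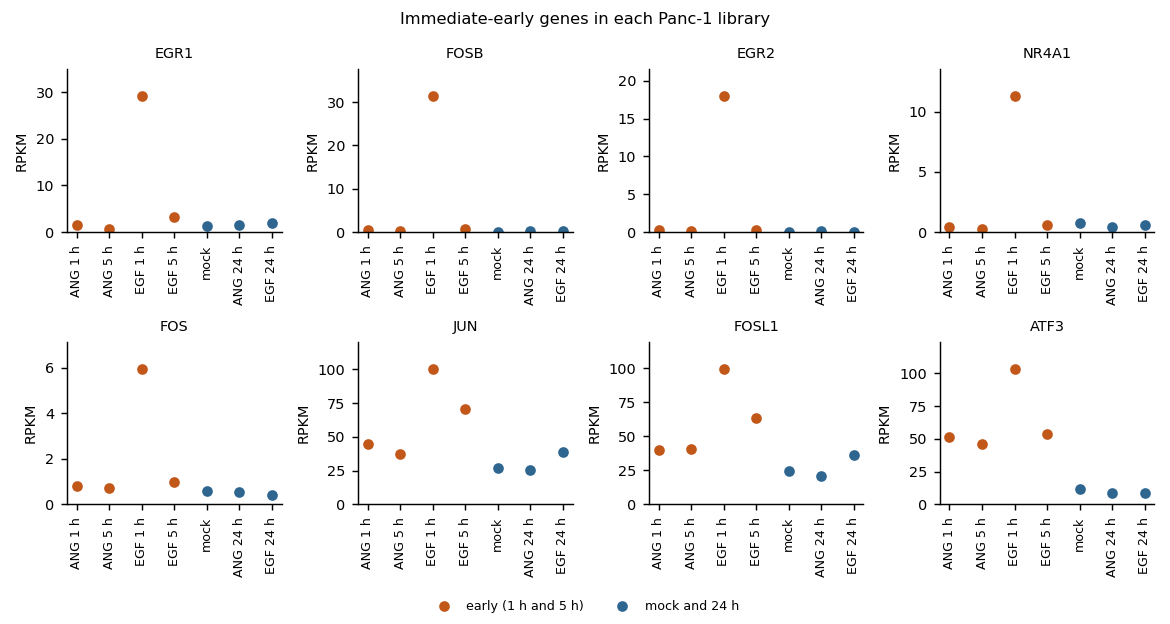
RPKM (vertical) of 8 immediate-early genes in each of the 7 Panc-1 libraries (horizontal), early libraries left of mock and 24 h libraries, 1 point per library. EGR1, FOSB, EGR2, NR4A1 and FOS stand out in EGF 1 h alone (5.95 to 31.3 RPKM), while ATF3 is higher in all 4 early libraries, at 45.9 to 104 RPKM against 9.01 to 12.01 RPKM.

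Within the early set the ligands were compared with time as a term, and the times with ligand as a term, over 2 libraries each, in a fit of all 7 libraries in which mock and the 24 h libraries give part of the spread. EGF minus ANG called 0 genes in limma, with 593 at an unadjusted p under 0.05, and 5 h minus 1 h called 0, with 314. Both unadjusted counts are under 1 in 20 of the 12484 genes tested, about the share that chance alone gives. With an early library left out, each contrast is 1 library against 1. The whole spread then comes from mock and the 24 h libraries, which assumes that early libraries vary like those. Leaving out ANG 5 h or EGF 5 h gave the same difference, EGF 1 h minus ANG 1 h, which was 3.59 for EGR1. Leaving out ANG 1 h or ANG 5 h gave EGF 5 h minus EGF 1 h, which was -2.81 for EGR1. Leaving out EGF 24 h, which enters through the spread alone, gave 8 higher with EGF. By rank, EGR1 (2.45), SPRY4 (2.01), RRAD (1.81), NAB2 (1.66) and DUSP6 (1.53) had the largest differences toward EGF, none past the threshold. The reads of NAB2 are uncertain because its span overlaps that of STAT6 on the other strand. SPRY4, a feedback inhibitor of RAS signalling, was at 39.6 and 32.6 RPKM in EGF 1 h and EGF 5 h, against 9.41 and 7.10 RPKM in ANG 1 h and ANG 5 h, and at 28.0 RPKM in EGF 24 h, against 12.6 RPKM in ANG 24 h and 13.9 RPKM in mock. DUSP6, the ERK phosphatase, was at 46.0 and 25.2 RPKM in EGF 1 h and EGF 5 h, against 13.7 and 9.09 RPKM in ANG 1 h and ANG 5 h, and at 14.3 RPKM in EGF 24 h, against 6.39 RPKM in ANG 24 h and 7.47 RPKM in mock. At each of the 3 times the EGF library was the higher one for both genes. Of 15 MAPK feedback genes tested between the sets 1 was higher (6.7%) and 2 lower (13.3%), fewer than the 20.5% and 24.5% of all genes. The higher one, ERRFI1, lost its call without ANG 24 h, and of the lower ones DUSP7 lost its call without any of ANG 1 h, ANG 5 h, ANG 24 h, EGF 1 h and EGF 24 h.

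In AsPC-1 the same contrast called 2297 genes higher (19.1%) and 4046 lower (33.6%) of 12024 tested, with a median of -0.12 over all genes. The difference between the lines, the early change in Panc-1 minus that in AsPC-1, was tested as an interaction over all 14 libraries and was positive for 3784 of 13427 genes (28.2%) and negative for 2826 (21.0%). With each library centred on its median the split was 3063 and 4207, and with genes under 400 bp left out it was 3393 and 3735. Of the genes called in both lines 451 were higher in both, 911 lower in both, 1067 higher in Panc-1 and lower in AsPC-1, and 499 lower in Panc-1 and higher in AsPC-1.

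All 40 G2/M genes were higher in early Panc-1 and lower in early AsPC-1, where the median was -2.91, and the interaction passed for all 40 (median 4.34). TOP2A, at 152 to 182 RPKM in early Panc-1 and 39.4 to 53.04 RPKM in Panc-1 mock and 24 h, was at 4.07 to 8 RPKM in 3 early AsPC-1 libraries and 10.7 RPKM in EGF 1 h and at 129, 112 and 73.9 RPKM in AsPC-1 mock and 24 h (interaction 5.56, limma adjusted p = 3.6e-08). All 21 histone genes of the list behaved likewise, with a median of -3.86 in AsPC-1 and an interaction median of 5.70. For HIST1H1B the interaction was 7.55, with 656 to 904 RPKM in early Panc-1, 120.0 to 191 RPKM in Panc-1 mock and 24 h, 10.8 to 33.6 RPKM in early AsPC-1 and 618 to 739 RPKM in AsPC-1 mock and 24 h (limma adjusted p = 9.17e-09). In both lines the mock library lay with the 24 h libraries for these genes. Of the G1/S list 37 of 39 tested were lower in AsPC-1 and 1, SLBP, higher, with an interaction for 37.

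Cholesterol synthesis genes fell in both lines, with 15 of 19 lower in AsPC-1 (median -0.74) and an interaction for 3 of 20 upward and 7 downward. MVD differed by -2.09 in Panc-1, against -0.50 in AsPC-1 (interaction -1.58, limma adjusted p = 4.88e-05), and FASN by -1.46 in Panc-1, against 0.34 in AsPC-1 (AsPC-1 limma adjusted p = 0.162, interaction -1.80, limma adjusted p = 1.87e-05). Of the ATF4 genes 18 of 25 were higher in Panc-1, and in AsPC-1 2 were higher and 13 lower of 22 tested (median -0.82), with an interaction for 15 of 25 upward and 2 downward. Of the 33 ribosome biogenesis genes 17 rose in Panc-1 and 26 in AsPC-1 (median 0.85), with an interaction toward AsPC-1 for 21 and toward Panc-1 for 1. NF-kB and chemokine genes, of which 10 of 20 fell in Panc-1, were higher in 9 of 20 and lower in 1 in AsPC-1. Heat shock chaperones were higher in 10 of 17 and lower in 1 in AsPC-1. CCND1 was lower in early Panc-1 and higher in early AsPC-1, at 233 to 267 RPKM against 63.6 to 75.1 RPKM in AsPC-1 mock and 24 h (interaction -2.54, limma adjusted p = 4.81e-08).

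**Figure D5:**
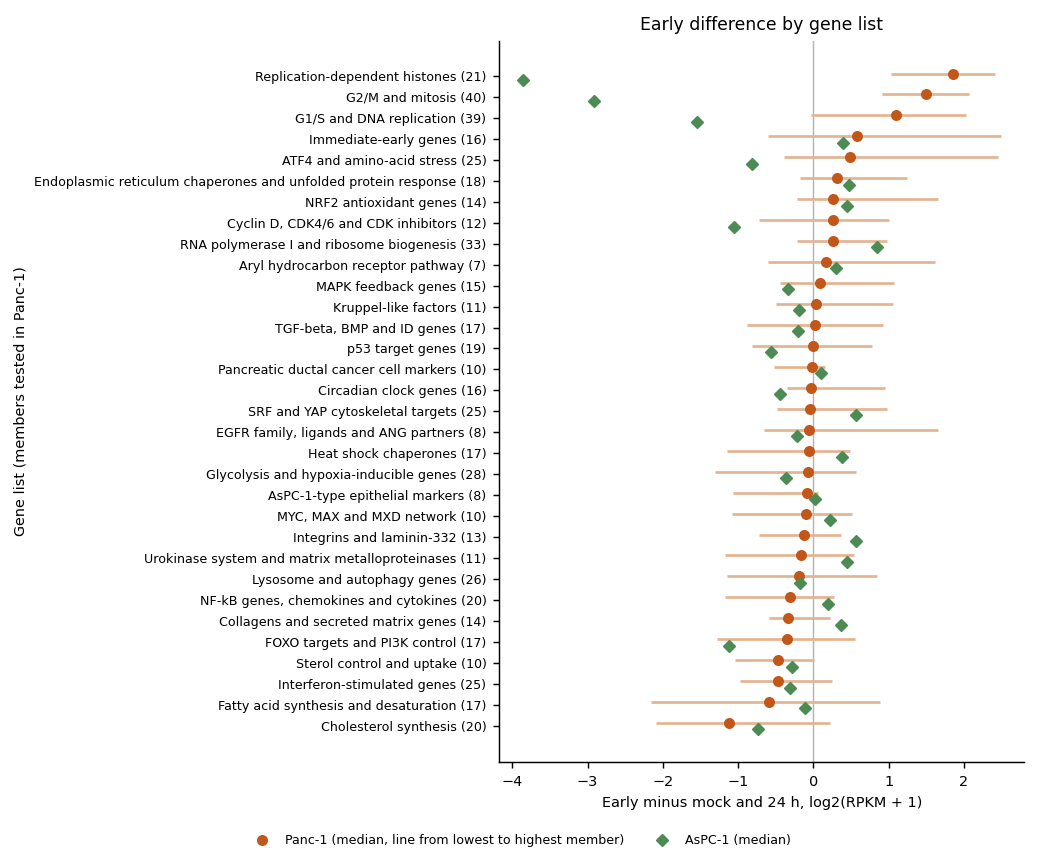
Median difference per gene list (horizontal, early minus mock and 24 h, log2(RPKM + 1)) for Panc-1 (circles, with a line from the lowest to the highest member) and AsPC-1 (diamonds), lists down the page with the number tested in Panc-1. Histone, G2/M and G1/S medians are above 0 in Panc-1 (1.85, 1.5 and 1.10) and below it in AsPC-1 (-3.86, -2.91 and -1.54), and cholesterol synthesis is below 0 in both (-1.12 and -0.74).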

How the data were processed

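Total RNA extracted with TRIzol was sequenced, per the labels. The authors deposited 1 file per library with log2 RPKM for 23040 genes, symbols and hg19 coordinates, a build given in the submitters' processing notes. The sources used here name no aligner, counter, annotation or use of strand. The deposited log2 values were turned back to RPKM, with the lowest (-8.966) read as 0 RPKM. Low values (under 5 RPKM) lay on steps of 0.01, within 0.1 of a step, for 95.8%, and depth was read from the steps of genes spanning 150 bp or less. Counts per gene were not rebuilt.

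limma 3.58.1 in R 4.3.3 was fitted with a variance trend to log2(RPKM + 1), two-sided, with Benjamini-Hochberg adjustment over all genes tested and a threshold of 0.05. The p-values reflect no more than the variation among these libraries, which may be technical. The fits were tested on simulated data with few changed genes and independent noise. That test does not show how many of the calls given here are false. The sets, gene lists and naming rule were chosen with earlier results of these data known. The rule named the 12 highest and 12 lowest called genes without overlap (mean at least 1 RPKM), 6 each way in the line difference, 5 each way within the early set, up to 4 members of each list, and EGFR, ANG, RNH1 and PLXNB2. Other members were named for their role after their values were seen. Of the tested genes 9581 matched a promoter in RefSeq's GRCh38.p14 table, 1207 through older symbols, and matching promoters were counted once. Alternatives were another pseudocount, filters, rescaling, separate mock and 24 h sets, a ligand term and leaving out each library. Reads of some genes were called uncertain because spans overlap or copies are near-identical. A few list members are not reported here.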

Additional observations from a re-analysis of the deposited data

Results flagged for a closer look

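Among 41 named genes examined over the 4 early libraries, 2 had a library far from its set on the log2(RPKM + 1) scale (Dixon's ratio of gap to range, above its 95% critical value), and chance flags about 1 in 20 such groups. ZNF367 was high in EGF 1 h (25.9 RPKM, 14.6 to 14.9 RPKM in the other early libraries, gap share 0.971). SERPINA3 was high in ANG 1 h (25.99 RPKM, 24.0 to 24.2 RPKM in the other early libraries, gap share 0.92), a gap small beside the 71.4 to 94.7 RPKM of the mock and 24 h libraries.

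Many genes differed between the lines in the early change by limma's interaction, and the 6 most positive and 6 most negative by the naming rule are given here. The change in Panc-1 minus that in AsPC-1 was positive for the histone genes HIST1H1B (7.547), HIST1H1D (7.373), HIST1H3H (7.247), HIST1H2AL (6.912), HIST1H2AJ (6.782) and HIST1H3J (6.728). These were higher early in Panc-1 and lower early, by more, in AsPC-1. HIST1H1D was at 205 to 308 RPKM in early Panc-1 and 45.1 to 81.0 RPKM in Panc-1 mock and 24 h, and at 5.44 to 10.8 RPKM in early AsPC-1 and 340.1 to 364 RPKM in AsPC-1 mock and 24 h. The change in Panc-1 minus that in AsPC-1 was negative for IL32 (-3.726), PHLDA3 (-3.561), TGM2 (-3.515), SEMA7A (-3.405), TAGLN (-3.292) and ANGPTL4 (-3.195). IL32, a cytokine gene, was at 8.42 to 10.4 RPKM in early Panc-1 and 25.4 to 27.3 RPKM in Panc-1 mock and 24 h, and at 40.3 to 49.0 RPKM in early AsPC-1 and 6.06 to 9.98 RPKM in AsPC-1 mock and 24 h. TGM2 went opposite ways too, at 191 to 297 RPKM in early AsPC-1 and 48.1 to 103 RPKM in AsPC-1 mock and 24 h. SEMA7A did not differ between the sets in Panc-1 beyond their spread (-0.04, limma adjusted p = 0.891) and was at 9.80 to 31.6 RPKM in early AsPC-1, against 0.27 to 1.68 RPKM in AsPC-1 mock and 24 h.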

How the results depend on the processing

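Genes called higher numbered 1875 to 2588 and lower 2344 to 3015 when each library was left out (fewest higher without ANG 24 h, fewest lower without mock). Other settings gave 1207 (early minus mock alone) to 2963 higher and 2168 (filter of 5 RPKM) to 3451 lower. Without each library in turn, EGF minus ANG called 0 to 8 higher and 0 to 2 lower, and 5 h minus 1 h 0 to 4 higher and 0 to 3 lower, with 0 under a pseudocount of 0.1 or centring. With an early library left out these rest on the spread of mock and the 24 h libraries. NF-kB members called lower numbered 10, 6 against 24 h alone, and 6 (without mock) to 13 with a library left out. The count of G2/M members stayed at 40 in all 17 settings, the others at 36 to 39 (G1/S), 18 to 21 (histones), 18 to 19 (cholesterol), 12 to 13 (fatty acid), 13 to 20 (interferon) and 13 to 19 (ATF4). The single higher members of the cholesterol, interferon, FOXO and collagen lists each lost their call without at least 2 of the libraries. Of 2277 values of 135 named genes under these settings 94 lost their call and none changed sign. OSR2, ranked low at 5 h minus 1 h, moved to -2.327 without ANG 1 h or ANG 5 h and turned to 0.006 without EGF 1 h or EGF 5 h. These are its EGF 5 h minus EGF 1 h and its ANG 5 h minus ANG 1 h. The line difference called 3263 to 4590 genes upward and 2420 to 2861 downward with a library left out, and centring moved the upward share of calls from 57.2% to 42.1% and the median from 0.05 to -0.12. No paired analysis was possible because each condition has 1 library and the labels give no shared replicate numbers. Depth limits genes near the value of 1 read, and no counting intervals are given, as counts were not rebuilt.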
